A study of Mus musculus with 6 samples.

Results

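Chemokines are small secreted proteins that direct the movement of blood and immune cells, and chemokine receptors are the membrane proteins through which cells sense them. The genes described here are those of the count table whose symbol is Ccl, Cxcl, Ccr, Cxcr, Xcl or Xcr followed by a number, together with Cx3cl1 and Cx3cr1. They were 62 of 37576 genes, 42 ligands and 20 receptors, with Ccl25 present under a pair of identifiers. RNA was taken with Trizol from cell suspensions of whole fetal liver at embryonic day 12.5, and 6 livers of C57BL/6 mice were sequenced. The E861A group held 3 livers, numbered 6, 16 and 19, with the genotype Adar1E861A/E861A, all male. The wild-type group held 3 livers, numbered 2 (male), 15 and 17 (both female). The comparison asks what changes in fetal liver when the RNA-editing enzyme ADAR1 carries a mutation that abolishes editing. The labels name no litter, no pooling and no tissue-specific driver of the mutation. The p-values measure the spread between these 6 livers, and a shared litter or pool could not be seen.

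Most chemokine receptors are coupled to inhibitory G proteins, and a cell that carries one moves towards the higher concentration of its ligand. Inflammatory ligands are made after a stimulus such as interferon, tumour necrosis factor or the transcription factor NF-kB and attract monocytes, neutrophils or lymphocytes. Homeostatic ligands are made continuously, and Cxcl12, which holds blood stem cells and progenitors in their niche through CXCR4, is the best known of them. Fetal liver at this age is the main site of blood formation, so most of its cells are red cell precursors, with macrophages, other blood cells, hepatoblasts, endothelial cells and stromal cells among them.

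The start regions of 5 ligand genes are shown first, because 4 of them were strongly higher in E861A livers and their windows hold known inflammatory motifs. Chosen in this way, they do not stand for all the genes that rose. They are the 250 bases before the gene's start, 5′ to 3′ along the gene, from RefSeq on GRCm38.p6, and capitals mark a match to the interferon-stimulated response element (GAAA, any 2 bases, GAAA) or to the NF-kB motif (GGG, a purine, any 2 bases, 2 pyrimidines, CC) on either strand. Cxcl10 lies at chr5:92348890-92349139 on the minus strand, Cxcl1 at chr5:90890995-90891244, Cxcl2 at chr5:90903649-90903898, Cxcl3 at chr5:90785851-90786100 and Ccl20 at chr1:83116516-83116765, these 4 on the plus strand.
Cxcl10: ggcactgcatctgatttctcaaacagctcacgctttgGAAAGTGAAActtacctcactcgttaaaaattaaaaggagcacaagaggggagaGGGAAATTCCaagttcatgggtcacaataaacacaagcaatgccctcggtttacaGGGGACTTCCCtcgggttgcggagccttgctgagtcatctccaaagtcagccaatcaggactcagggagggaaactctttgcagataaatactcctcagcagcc
Cxcl1: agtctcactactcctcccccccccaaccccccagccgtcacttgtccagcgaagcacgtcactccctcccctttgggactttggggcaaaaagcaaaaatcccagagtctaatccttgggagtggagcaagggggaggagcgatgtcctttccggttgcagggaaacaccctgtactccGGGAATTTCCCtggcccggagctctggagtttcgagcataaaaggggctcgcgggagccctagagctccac
Cxcl2: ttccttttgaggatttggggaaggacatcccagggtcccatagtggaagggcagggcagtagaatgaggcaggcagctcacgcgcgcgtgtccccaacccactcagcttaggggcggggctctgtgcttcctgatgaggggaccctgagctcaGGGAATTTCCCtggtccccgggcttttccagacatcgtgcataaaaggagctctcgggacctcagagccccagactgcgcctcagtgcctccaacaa
Cxcl3: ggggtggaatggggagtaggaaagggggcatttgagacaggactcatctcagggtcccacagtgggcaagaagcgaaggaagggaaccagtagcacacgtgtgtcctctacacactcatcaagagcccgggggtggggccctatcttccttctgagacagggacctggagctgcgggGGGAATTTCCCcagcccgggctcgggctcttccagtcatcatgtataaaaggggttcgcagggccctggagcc
Ccl20: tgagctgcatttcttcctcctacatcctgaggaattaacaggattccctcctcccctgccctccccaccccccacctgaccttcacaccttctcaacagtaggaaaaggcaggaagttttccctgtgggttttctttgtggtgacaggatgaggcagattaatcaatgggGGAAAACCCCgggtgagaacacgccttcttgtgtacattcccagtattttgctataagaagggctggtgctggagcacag
In Cxcl10 the response element began 213 bases before the start and the NF-kB matches 159 and 104 bases before it, the second of them holding overlapping matches on both strands. Cxcl1, Cxcl2 and Cxcl3, neighbours on chromosome 5, each held an NF-kB match of the same letters, read on both strands, that began 71, 97 and 73 bases before the start. The match in Ccl20 began 80 bases before it.

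Of 32851 such windows in the whole table, 7.25% held the NF-kB motif, 2.98% the response element, 7.02% the gamma-activated site (TTCNNNGAA) and 0.164% both of the first pair. Windows were found for 43 of the chemokine and receptor genes, and 10 of these were among the genes higher in E861A livers described below. Of these 10, the NF-kB motif was present in 6 (Ccl20, Ccl9, Ccr1, Cxcl1, Cxcl2 and Cxcl10), the response element in 1 (Cxcl10) and the gamma-activated site in 0. The rest, Ccl12, Ccl3, Cxcl9 and Cxcr4, held no match to any of the motifs. Other genes that rose, such as Ccl2, Ccl5 and Cxcl11, had no window. Of 12 tested genes with a window that did not pass, the NF-kB motif was present in 0 and the other 2 motifs in 1, Cxcl14. For so few windows, 0 of 12 is near the 7.25% of all windows. Among 20 untested genes with a window the NF-kB motif was present in Ccl1, Ccr3, Ccr6 and Cxcl3. These are matches of letters in a short window and show neither binding nor a cause.

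Reads counted in genes were 35280460 to 43080042 in E861A livers and 39192271 to 43733715 in wild-type livers. Levels are given in CPM, the reads of a gene per 1000000 reads of its library after TMM scaling. Marker genes of the tissue fitted its label: the summed level of 10 hepatoblast genes was 20243 to 29553 CPM in E861A livers and 16329 to 20565 CPM in wild-type livers, and that of 9 red cell genes 14091 to 15036 CPM and 17304 to 42912 CPM. Genes that respond to tissue dissociation, such as Egr1, Atf3 and Hspa1a, summed to 728, 1359 and 1430 CPM in E861A 6, 16 and 19, against 206, 438 and 346 CPM in wild type 2, 15 and 17. Of these 12 genes 7 were higher in E861A livers and none was lower, against 7.77% and 4.26% of all tested genes. Their median log2 fold change was 1.55. Over 12 alternatives 2 to 9 were higher, with 2 without wild type 17 and 3 without E861A 16. Their part in the chemokine results was not tested.

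Most chemokine ligands that could be tested rose in E861A livers, while most receptors did not pass. Of 34 tested genes, 17 were higher in E861A livers and 2 were lower, by edgeR's quasi-likelihood test with a Benjamini-Hochberg adjusted p under 0.05 over all tested genes. Over all 16511 tested genes these shares were 7.77% and 4.26%. By role, 14 of 23 ligands rose and 1 fell, against 3 of 11 receptors that rose and 1 that fell. A rise of over 4-fold was found in 12 of the 34, against 2.78% of all tested genes. The 3 E861A values lay wholly above the 3 wild-type values in 18 of the 34 genes (19.4% of all tested genes) and wholly below them in 3 (14.5%). Of the 34 genes, 7 had fewer than 10 reads in every wild-type library and entered the test through their E861A reads, and 1, Ccr9, entered through its wild-type reads, so such genes had to differ to be tested at all. The median log2 fold change was 2.27 over the ligands and 0.43 over the receptors, against 0.04 over all tested genes. In RNA of whole livers, fewer cells of a type and less RNA per cell cannot be told apart.

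**Figure D1:**
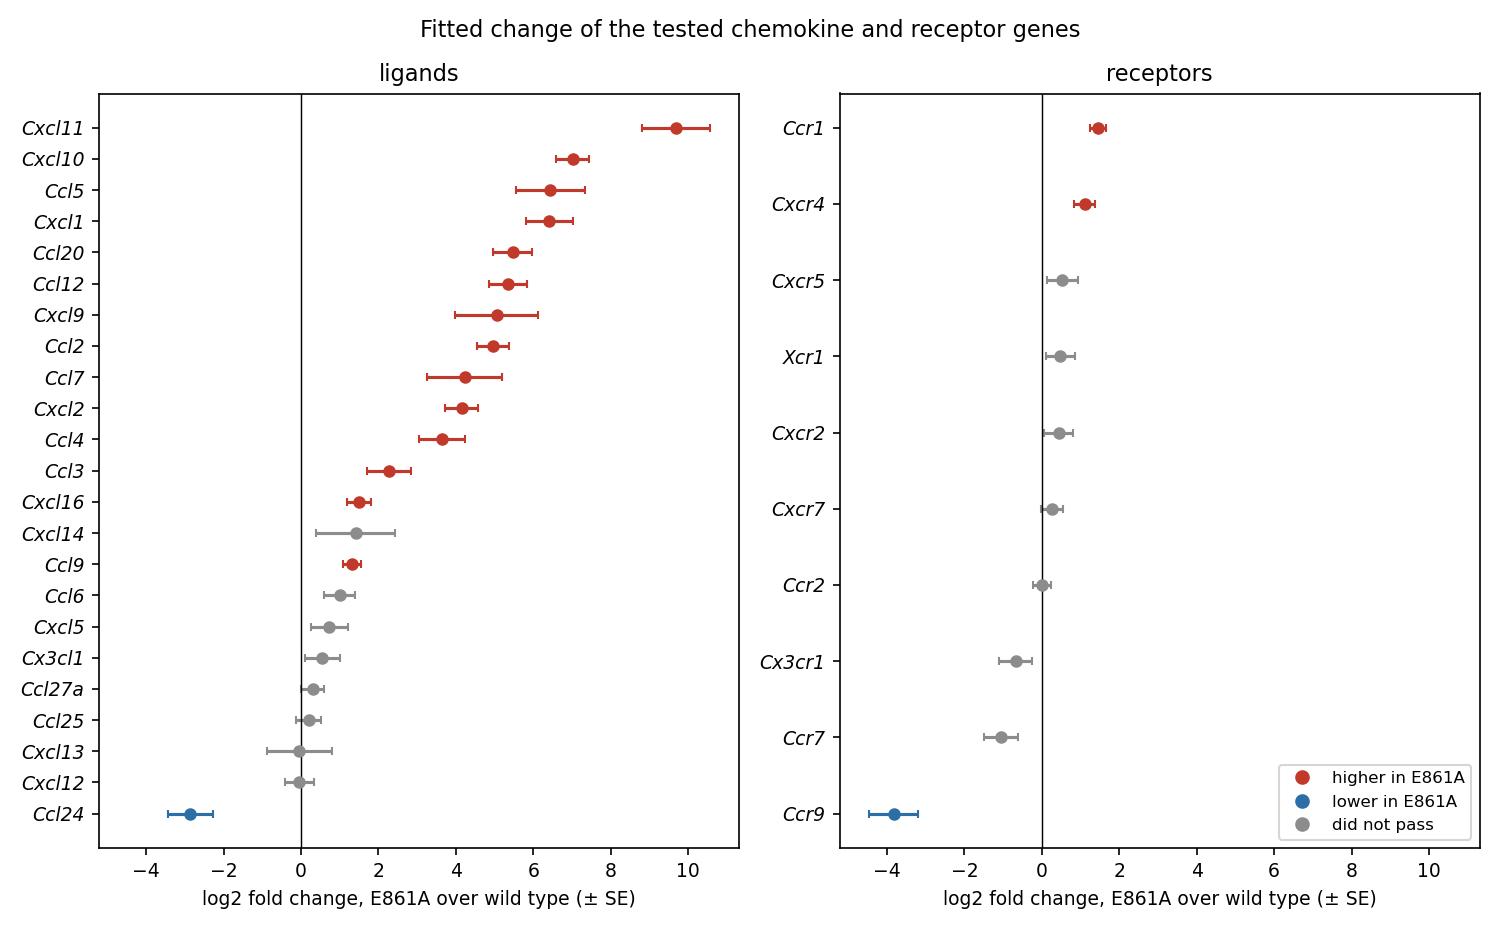
Log2 fold change of E861A over wild type with its standard error for 23 tested ligand genes (left panel) and 10 of the 11 tested receptor genes (right panel), with rises in red, falls in blue and genes that did not pass in grey. Ligands extend to 7.02 for Cxcl10, while no receptor drawn lies above 1.45; the point for Cxcl11, with 0 wild-type reads, depends on the fit and is no bound.

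The ligands of CXCR3, which attract activated T cells and natural killer cells and are known targets of interferon, all rose. Cxcl10 (ENSMUSG00000034855, chromosome 5, 92775664 to 92777915, NCBIM37) stood at 583, 393 and 243 CPM in E861A 6, 16 and 19, against 2.46, 3.99 and 2.97 CPM in wild type 2, 15 and 17. The lowest E861A liver lay far above the highest wild-type liver, and E861A 6 was the highest. Its mean was 406 ± 171 CPM in E861A livers and 3.14 ± 0.78 CPM in wild-type livers (SD, n = 3 each). The log2 fold change was 7.02 (SE 0.42, edgeR adjusted p = 6.41e-05). Cxcl10 shares 133 exon bases with Art3 on the other strand, and whether strand was used in counting is not stated, but Art3 itself reached a mean of only 2.21 CPM in E861A livers and 0.374 CPM in wild-type livers.

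Cxcl11 had 158, 84 and 68 reads in E861A 6, 16 and 19 and 0 reads in each wild-type library. Against a floor of 3 reads over the wild-type group it was at least 100.1-fold higher in E861A livers (edgeR adjusted p = 0.00197). The count table annotates it as antisense, in C57BL/6 mice it is known not to encode a functional protein, and it shares 1582 exon bases with Gm2673, which had 0 reads. Cxcl9 had 83, 9 and 26 reads in E861A 6, 16 and 19, against 1, 2 and 0 reads in wild type 2, 15 and 17. The ranges did not overlap, and E861A 16 lay well below the other E861A livers. The ratio of scaled reads was 38.1, with a counting interval of 12.7 to 187.5 at 95% (edgeR adjusted p = 0.0229). Cxcl9 did not pass when sex was a covariate, among male libraries alone, or without either female wild-type liver or E861A 6, and over its 11 alternatives the adjusted p ranged from 0.000454 to 0.308. Its fitted log2 fold change was 5.05, against 3.89 without E861A 6 and 5.94 without wild type 15.

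The receptor CXCR3 was barely detected. Cxcr3 had 5, 0 and 5 reads in E861A 6, 16 and 19, against 4, 5 and 8 reads in wild type 2, 15 and 17, too few for the test. Markers of T, B and natural killer cells were low as a list, and 8 of 20 could be tested. Lck was higher and Rag1 was lower, against 7.77% and 4.26% of all tested genes. The summed level of the list was 28.4 to 31.6 CPM in E861A livers and 11.4 to 16.2 CPM in wild-type livers. Most of the E861A sum was Lck, at 23.7, 19.8 and 18.5 CPM in E861A 6, 16 and 19, against 5.24, 5.24 and 5.005 CPM in wild type 2, 15 and 17. Lck passed in all 12 alternatives. Cd3e, a defining part of the T cell receptor, had 1 read in all 6 libraries. Their part in the ligand results was not tested.

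**Figure D2:**
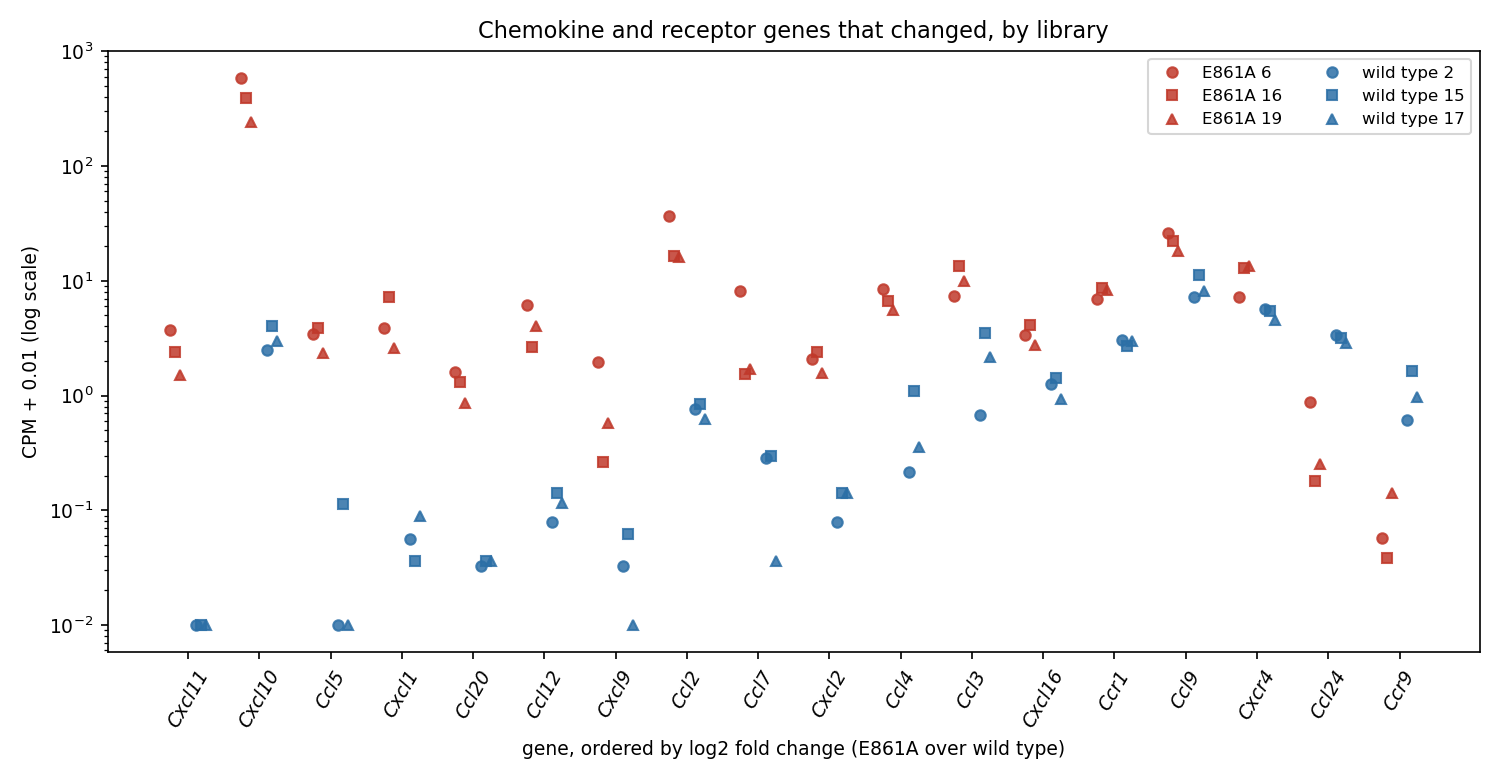
Level in CPM plus 0.01 on a log axis of 18 of the 19 chemokine and receptor genes that changed, with a point for each E861A library (red) and each wild-type library (blue) and genes ordered by log2 fold change. The red points lie above the blue ones in the first 16 genes and below them in Ccl24 and Ccr9.

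The ligands of CCR2, which draw monocytes out of the blood, rose as a group. Ccl2 (ENSMUSG00000035385, chromosome 11, 81849073 to 81850955) stood at 36.8, 16.3 and 16.2 CPM in E861A 6, 16 and 19, against 0.759, 0.834 and 0.609 CPM in wild type 2, 15 and 17. The groups were far apart, with E861A 6 at over double the level of the other E861A livers. Its mean was 23.1 ± 11.9 CPM in E861A livers and 0.734 ± 0.115 CPM in wild-type livers (SD, n = 3 each), and the log2 fold change 4.97 (SE 0.41, edgeR adjusted p = 0.000286). Ccl12, a second CCR2 ligand of the mouse, stood at 6.10, 2.63 and 4.003 CPM in E861A livers, against 0.069, 0.130 and 0.106 CPM in wild-type livers (log2 fold change 5.35, SE 0.48, adjusted p = 0.000394). Here too no E861A value came near a wild-type value.

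Ccl7, which binds CCR2 among other receptors, stood at 8.08, 1.52 and 1.68 CPM in E861A 6, 16 and 19, against 0.276, 0.287 and 0.026 CPM in wild type 2, 15 and 17. Both groups were spread widely, E861A by 5.30 times and wild type by 10.8 times between the highest and lowest library. Its log2 fold change was 4.23 (SE 0.97, edgeR adjusted p = 0.0335). Ccl7 kept its call in 5 of 12 alternatives and did not pass with no filter on low counts, when sex was a covariate, among male libraries alone, or without E861A 6, E861A 16, wild type 15 or wild type 17 (adjusted p from 1.81e-06 to 0.347). Without E861A 6 the log2 fold change was 3.0. Ccr2 itself, the receptor of all 3, did not pass: it stood at 4.33, 4.71 and 4.73 CPM in E861A livers, against 4.44, 5.37 and 3.84 CPM in wild-type livers (log2 fold change 0.01, SE 0.23). Its ranges overlapped, and the sign of its fold change was negative in 8 of 12 alternatives, between -0.10 and 0.15 over all of them.

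Inflammatory CC ligands that attract monocytes, macrophages and T cells also rose. Ccl5 had 145, 137 and 107 reads in E861A 6, 16 and 19, against 0, 4 and 0 reads in wild type 2, 15 and 17. All wild-type reads came from wild type 15, and the E861A livers were alike. The ratio of scaled reads was 94.2, with a counting interval of 36.5 to 347.6 at 95% (log2 fold change 6.45, SE 0.90, edgeR adjusted p = 0.00428). Without wild type 2 the log2 fold change was 5.85, and without wild type 15 no wild-type read was left. Ccl4 stood at 8.46, 6.69 and 5.51 CPM in E861A livers, against 0.207, 1.09 and 0.344 CPM in wild-type livers, with wild type 15 the highest of its group. Its log2 fold change was 3.65 (SE 0.60, adjusted p = 0.00907), and the call was lost without wild type 17 alone (adjusted p = 0.0523, over a range of 1.28e-10 to 0.0523). Its size depended on the wild-type libraries used, with a log2 fold change of 4.64 without wild type 15, 5.04 when sex was a covariate and 5.05 among male libraries alone.

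Ccl3, the close relative of Ccl4, stood at 7.42, 13.4 and 9.87 CPM in E861A 6, 16 and 19, against 0.667, 3.52 and 2.17 CPM in wild type 2, 15 and 17. The groups did not overlap, but the wild-type livers differed 5.28-fold among themselves, with the male liver lowest. The log2 fold change was 2.27 (SE 0.56, edgeR adjusted p = 0.0416). Ccl3 did not pass with no filter on low counts or without wild type 17 or any of the E861A libraries (adjusted p from 9.73e-05 to 0.1698 over 12 alternatives). Its log2 fold change was 3.93 when sex was a covariate and 3.94 among male libraries alone. Ccl9, a CCR1 ligand of the mouse, was already well expressed in wild type: it stood at 26.3, 22.2 and 18.0 CPM in E861A livers, against 7.20, 11.2 and 8.16 CPM in wild-type livers (log2 fold change 1.32, SE 0.23, adjusted p = 0.00998). Its groups were apart, and the call was lost in the male libraries alone and without wild type 17 or E861A 16 (adjusted p from 3.83e-05 to 0.0833). Ccl6, its neighbour and relative, stood at 15.6, 6.41 and 5.78 CPM in E861A livers, against 3.98, 5.06 and 4.85 CPM in wild-type livers. Those ranges did not overlap either, with E861A 6 far above the rest, but Ccl6 did not pass (log2 fold change 1.0, SE 0.39, adjusted p = 0.144).

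Ccr1, a receptor of Ccl3, Ccl5 and Ccl9, rose as well. It stood at 6.90, 8.64 and 8.36 CPM in E861A 6, 16 and 19, against 3.04, 2.71 and 2.99 CPM in wild type 2, 15 and 17. The groups were tight and well apart. The log2 fold change was 1.45 (SE 0.22, edgeR adjusted p = 0.00525). The call was lost when sex was a covariate, when male libraries were used alone and without E861A 16, while the fold change stayed between 1.32 and 1.54. Over its 12 alternatives the adjusted p ranged from 6.08e-07 to 0.186.

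Markers of macrophages and monocytes, the cells that carry CCR1 and CCR2, did not shift together. Of 15 tested, 3 were higher (Ly6c2, Fcgr1 and Cd68) and 1 was lower (Emr1), against 7.77% and 4.26% of all tested genes. The median log2 fold change of the 15 was 0.02. Over 12 alternatives 2 or 3 were higher and 0 to 3 lower, with 0 lower when sex was a covariate, among male libraries alone and without either female wild-type liver or E861A 16. Emr1 passed in 6 of 12 (adjusted p from 0.000725 to 0.438). Their summed level was 445 to 519 CPM in E861A livers and 389 to 481 CPM in wild-type livers. Emr1, which encodes the macrophage antigen F4/80, stood at 13.6, 8.75 and 13.2 CPM in E861A 6, 16 and 19, against 19.5, 24.6 and 22.0 CPM in wild type 2, 15 and 17. Cx3cr1, the receptor of Cx3cl1 on macrophages and monocytes, stood at 3.76, 10.4 and 13.6 CPM in E861A livers, against 12.9, 15.6 and 15.9 CPM in wild-type livers. E861A 6 was the lowest and E861A 19 overlapped wild type, and Cx3cr1 did not pass (log2 fold change -0.68, SE 0.42, adjusted p = 0.354). The part of these cells in the ligand results was not tested.

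Ligands of CXCR2, the main receptor that draws neutrophils, split by gene. Cxcl1 had a level of 3.88, 7.20 and 2.60 CPM in E861A 6, 16 and 19, against 0.046, 0.026 and 0.079 CPM in wild type 2, 15 and 17. Cxcl2 had a level of 2.08, 2.37 and 1.55 CPM in E861A livers, against 0.069, 0.130 and 0.132 CPM in wild-type livers. In both, E861A 16 was the highest library and wild type was near 0. The log2 fold changes were 6.42 for Cxcl1 (SE 0.60, edgeR adjusted p = 0.000463) and 4.15 for Cxcl2 (SE 0.42, adjusted p = 0.000759), that of Cxcl2 being 4.80 when sex was a covariate and 4.81 among male libraries alone. Cxcl3, which lies in the same cluster and holds the same NF-kB letters shown above, had 12, 17 and 7 reads in E861A livers, against 3, 2 and 5 reads in wild-type livers. All E861A counts of Cxcl3 were higher, but it was too low for the test and did not pass with no filter (adjusted p = 0.1505).

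Cxcl5, a further CXCR2 ligand, did not pass: it stood at 2.86, 0.932 and 1.14 CPM in E861A 6, 16 and 19, against 0.920, 0.886 and 1.17 CPM in wild type 2, 15 and 17 (log2 fold change 0.73, SE 0.47, adjusted p = 0.373). Only E861A 6 stood above the wild-type range. Cxcr2 stood at 3.26, 6.69 and 4.79 CPM in E861A livers, against 2.23, 4.93 and 3.76 CPM in wild-type livers, with overlapping ranges (log2 fold change 0.43, SE 0.38, adjusted p = 0.527). Of 12 tested neutrophil and granulocyte markers 2 were higher (Prtn3 and Ctsg) and none was lower, against 7.77% and 4.26% of all tested genes. The median log2 fold change of these markers was 0.19. Their summed level was 415 to 718 CPM in E861A livers and 272 to 499 CPM in wild-type livers. DESeq2 called 4 higher and 1 lower, while in edgeR 1 was higher when sex was a covariate and also without E861A 6, and 0 among male libraries alone or without wild type 17, E861A 16 or E861A 19. The platelet chemokines of the same chromosome region, Pf4 and Ppbp, which carry other names, did not pass. Pf4 stood at 328, 187 and 170.3 CPM in E861A livers, against 96.9, 163 and 180.4 CPM in wild-type livers (log2 fold change 0.64, SE 0.32), and Ppbp had a log2 fold change of 0.40 (SE 0.29). Wild type 2 was the lowest library for both platelet genes.

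Ccl20, the ligand of CCR6 and a known NF-kB target, had 67, 46 and 39 reads in E861A 6, 16 and 19, against 1 read in each wild-type library. The ratio of scaled reads was 49.1, with a counting interval of 16.5 to 240.7 at 95% (edgeR adjusted p = 0.000437). Its call was lost in the male libraries alone (adjusted p = 0.0537, over a range of 1.61e-06 to 0.0537). Ccr6 had 6, 4 and 4 reads in E861A livers, against 1, 0 and 0 reads in wild-type livers, and did not pass with no filter (adjusted p = 0.0868). Cxcl16, a membrane-anchored ligand of CXCR6, stood at 3.33, 4.12 and 2.73 CPM in E861A livers, against 1.24, 1.41 and 0.927 CPM in wild-type livers. The groups did not overlap, and its log2 fold change was 1.51 (SE 0.31, adjusted p = 0.0196). Cxcl16 did not pass when sex was a covariate, among male libraries alone, or without either female wild-type liver or E861A 16 (adjusted p from 0.00104 to 0.304), and it shares 552 exon bases with Zmynd15 on the other strand. Zmynd15 itself averaged 2.43 CPM in E861A livers and 1.09 CPM in wild-type livers, so it was also higher in E861A livers and near the level of Cxcl16. Whether reads of Zmynd15 were counted for Cxcl16 was not tested. Cxcr6 had 3, 3 and 8 reads in E861A livers, against 3, 3 and 2 reads in wild-type livers.

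Ccl24 and Ccr9 were the 2 genes that fell. Ccl24, the eotaxin that attracts eosinophils through CCR3, stood at 0.875, 0.169 and 0.241 CPM in E861A 6, 16 and 19, against 3.33, 3.18 and 2.89 CPM in wild type 2, 15 and 17. Wild type was even, and E861A 6 was the nearest to it but still below. The log2 fold change was -2.85 (SE 0.59, edgeR adjusted p = 0.0200). Ccr9, which guides early lymphoid cells to the thymus through Ccl25, had 2, 1 and 6 reads in E861A livers, against 26, 62 and 36 reads in wild-type livers. The groups were apart, with wild type 2 the lowest of its group, and the log2 fold change was -3.83 (SE 0.64, adjusted p = 0.00879). Neither call held with sex as a covariate, in the male libraries alone or without E861A 16, and that of Ccl24 was also lost without either female wild-type liver or E861A 19. Ccr9 shares 269 exon bases with Gm17200 on the same strand, whose mean was 0.136 CPM in E861A livers and 0.124 CPM in wild-type livers. On the other strand it shares 22 with Slc6a20a, whose mean was also lower in E861A livers (0.446 against 0.914 CPM). It shares 56 with Gm17021 there, which had a mean of 0 CPM in both. Whether reads of these genes were counted for Ccr9 was not tested. Over the alternatives the adjusted p ranged from 7.62e-06 to 0.220 for Ccl24 and from 4.81e-05 to 0.223 for Ccr9, and each log2 fold change stayed below -2.5. That of Ccl24 was -3.90 without E861A 6, and that of Ccr9 was -4.67 without E861A 19 and -3.01 when sex was a covariate or among male libraries alone.

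The partners of these 2 genes did not pass or were too low for the test. Ccr3 had 12, 13 and 7 reads in E861A 6, 16 and 19, against 7, 8 and 3 reads in wild type 2, 15 and 17, too few for the test. None of 7 tested eosinophil and mast cell markers passed in the edgeR fit to all 6 libraries (median log2 fold change -0.12), with 0 higher and 2 lower at an unadjusted p under 0.05 and 1 lower by DESeq2. Without wild type 2, 3 were lower. Over all tested genes 4.26% were lower in the edgeR fit to all 6 libraries, 8.25% by DESeq2 and 8.96% without wild type 2. The summed level of these markers was 168 to 182 CPM in E861A livers and 169 to 294 CPM in wild-type livers. Ccl25 averaged 3.06 ± 1.13 CPM in E861A livers and 2.65 ± 0.22 CPM in wild-type livers (SD, n = 3 each) and did not pass (log2 fold change 0.21, SE 0.32, adjusted p = 0.752). E861A 6 was the highest library, at 4.30 CPM, and without it the fold change was -0.12. Rag1, another gene of early lymphoid cells, had 3, 6 and 9 reads in E861A livers, against 18, 54 and 29 reads in wild-type livers (log2 fold change -2.54, SE 0.60, adjusted p = 0.0315). Its call held in only 4 of 11 alternatives and was lost when sex was a covariate, among male libraries alone and without each single library but wild type 2 (adjusted p from 0.0073 to 0.518). Il7r had a log2 fold change of -0.59 (SE 0.43) and did not pass. The part of lymphoid cells in the fall of Ccr9 was not tested.

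Cxcl12, the ligand with the highest level in wild type, did not follow the inflammatory ligands. It stood at 132, 71.5 and 87.9 CPM in E861A 6, 16 and 19, against 159, 70.7 and 72.3 CPM in wild type 2, 15 and 17. The ranges overlapped throughout, and the log2 fold change was -0.05 (SE 0.37, adjusted p = 0.953). Over 12 alternatives it lay between -0.71 and 0.43, and it was positive without wild type 2 (0.43) and without E861A 16 (0.05). Wild type 2 held the most and wild type 15 the least Cxcl12 and stromal marker RNA, but E861A 16 and wild type 17 had nearly as little Cxcl12. The 11 mesenchymal and stellate cell markers summed to 1158, 707 and 1535 CPM in E861A 6, 16 and 19, against 1841, 668 and 1270.2 CPM in wild type 2, 15 and 17. E861A 6 had more Cxcl12 than E861A 19 and wild type 17 but a lower marker sum. Of these markers Reln alone changed (lower). Reln passed in 7 of 12 alternatives. Without wild type 2, 4 other markers of the list were higher, against 10.4% of all tested genes. The part of these markers in the spread of Cxcl12 was not tested.

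Both receptors of Cxcl12 were measured. Cxcr4, its signalling receptor on blood cells, stood at 7.19, 12.8 and 13.4 CPM in E861A 6, 16 and 19, against 5.61, 5.42 and 4.53 CPM in wild type 2, 15 and 17. The groups did not overlap, and E861A 6 was the lowest of its group. The log2 fold change was 1.10 (SE 0.27, edgeR adjusted p = 0.0386), but Cxcr4 kept its call in only 6 of 12 alternatives and lost it when sex was a covariate, among male libraries alone and without E861A 16, E861A 19, wild type 15 or wild type 17 (adjusted p from 0.00388 to 0.430). Cxcr7, the atypical receptor that removes Cxcl12, stood at 43.2, 23.7 and 34.7 CPM in E861A livers, against 36.5, 20.5 and 27.8 CPM in wild-type livers, and did not pass (log2 fold change 0.26, SE 0.27, adjusted p = 0.612). Its ranges overlapped, and it had a negative fold change when sex was a covariate (-0.11) and among male libraries (-0.10).

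The rise of the inflammatory ligands changed the make-up of the whole. The 42 ligand genes summed to 860.4, 566 and 419 CPM in E861A 6, 16 and 19, against 194, 109 and 105 CPM in wild type 2, 15 and 17. Cxcl10 made up 67.8%, 69.4% and 57.9% of that sum in E861A livers, against 1.27%, 3.65% and 2.82% in wild-type livers. Cxcl12 made up 15.4%, 12.6% and 21.0% in E861A livers, against 82.1%, 64.7% and 68.8% in wild-type livers. The other ligands together gave 144, 101 and 88.4 CPM in E861A livers, against 32.2, 34.6 and 29.8 CPM in wild-type livers. The 20 receptor genes summed to 77.3, 74.4 and 88.2 CPM in E861A livers, against 69.8, 60.4 and 64.2 CPM in wild-type livers, so both sums were higher in every E861A liver, the ligand sum by the greater factor.

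**Figure D3:**
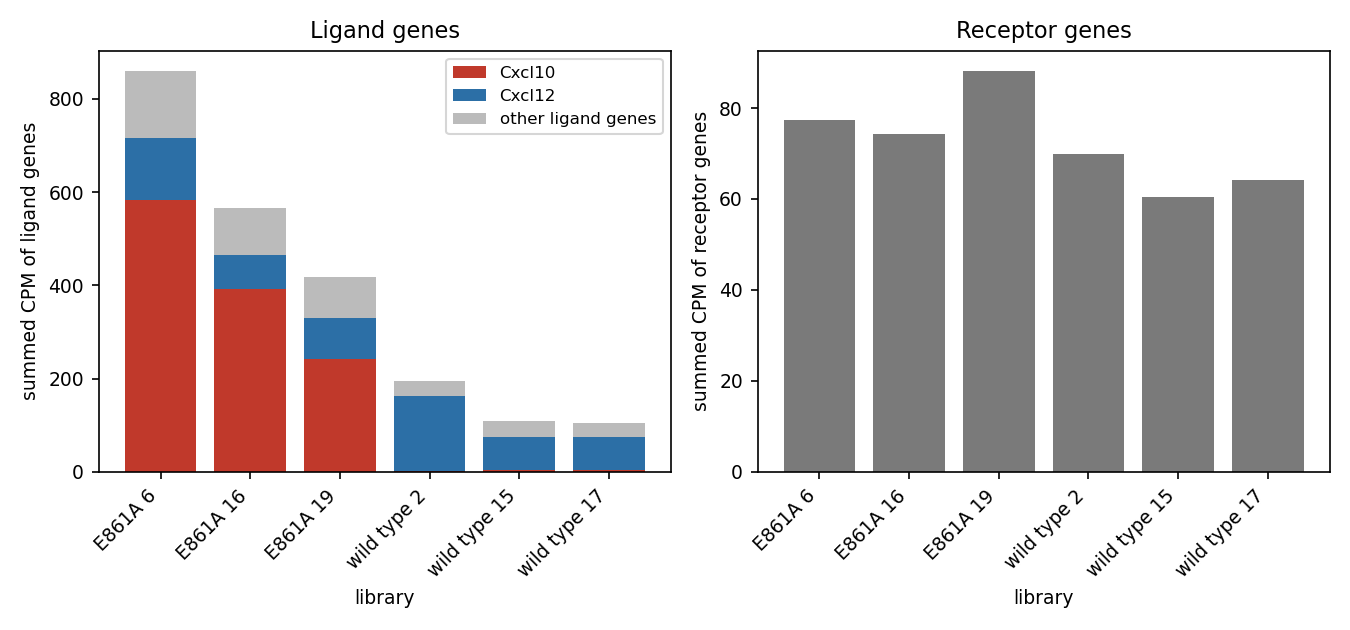
Summed CPM in each library of the 42 ligand genes, divided into Cxcl10, Cxcl12 and the rest (left panel), and of the 20 receptor genes (right panel), with E861A libraries left of wild-type ones. Cxcl10 fills 57.9% to 69.4% of the ligand bar in E861A and at most 3.65% in wild type.

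Per kilobase of exon, which allows genes of unequal length to be compared, the order of the genes differed between the genotypes. In E861A livers the highest mean level was that of Cxcl10, at 267 ± 112 CPM per kilobase (SD, n = 3), which ranked 189 among the tested genes. Ccl2 followed at 20.3 ± 10.4, Ccl3 at 13.4 ± 3.93, Cxcl12 at 11.9 ± 3.86, Ccl4 at 10.4 ± 2.25 and Cxcr7 at 10.1 ± 2.92 CPM per kilobase. Ccl3, Cxcl12, Ccl4 and Cxcr7 each lay within 1 SD of their neighbour among these 4, and the mean of Ccl2 lay above their spread, although its own SD reached them. In wild-type livers the highest was Cxcl12, at 12.3 ± 6.19 CPM per kilobase, followed by Cxcr7 at 8.44 ± 2.39, which lay within its spread. Cxcl10 came ninth there, at 2.06 ± 0.51 CPM per kilobase, and ranked 10436 among the tested genes.

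The remaining tested genes did not pass. Among ligands these were Cx3cl1 (fractalkine, log2 fold change 0.55), Ccl27a (a skin chemokine, 0.30), Cxcl13 (a B cell chemokine, -0.04) and Cxcl14 (1.41, with an SE of 1.013). Ccl27a stood at 4.37, 4.21 and 4.94 CPM in E861A 6, 16 and 19, against 5.01, 2.69 and 3.26 CPM in wild type 2, 15 and 17, and Cx3cl1 at 1.13, 1.36 and 1.82 CPM, against 1.61, 0.652 and 0.662 CPM. Both overlapped, with wild type 2 the highest wild-type library, and both fold changes were negative with sex as a covariate (-0.15 for Ccl27a and -0.16 for Cx3cl1). Cxcl14 varied 18.8-fold among E861A livers and 8.23-fold among wild-type livers, and Cxcl13 varied 4.49-fold and 9.70-fold. Among receptors Cxcr5, the receptor of Cxcl13, had a log2 fold change of 0.53, Xcr1, found on cross-presenting dendritic cells, 0.48, and Ccr7, the lymph node homing receptor, -1.05 (SE 0.44, adjusted p = 0.167). All 3 E861A values of Ccr7 were below the wild-type values, at 9, 6 and 17 reads in E861A livers, against 21, 16 and 26 reads in wild-type livers.

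The other 28 genes were too low for the test. No read was found for 8 of them: Ccl19-ps1, Ccl19-ps3, Ccl21a, Ccl21c, Ccl26, Ccl27b, Ccl28 and the second Ccl25 entry. That entry shares 1109 of its 1111 exon bases with the first Ccl25 entry on the same strand. How reads in shared bases were counted is not stated, so its 0 reads do not show absent expression, and the first entry may have lost reads. Ccl28 is placed on a separate scaffold, NT_166323, and is not in GENCODE M1, so its 0 reads carry a similar limit. The other 20 had 1 to 87 reads over the 6 libraries, and 10 had at least 10. Besides Cxcl3, Cxcr3, Ccr6, Ccr3 and Cxcr6, given above, these were Ccl17, Ccl22, Ccr10, Cxcr1 and Cxcl15. Ccl22, a ligand of CCR4, had 7, 1 and 10 reads in E861A 6, 16 and 19, against 9, 18 and 16 reads in wild type 2, 15 and 17. Cxcl15, a lung chemokine of the mouse, came almost wholly from a single library in each genotype, with 1, 2 and 37 reads in E861A livers, against 45, 2 and 0 reads in wild-type livers. None of the 20 passed with no filter on low counts.

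Many chemokine genes lie in chromosomal clusters, where they are known to have multiplied. The genes with reads for a test in the cluster on chromosome 11 from 81849073 to 82119192 (NCBIM37), Ccl2, Ccl7 and Ccl12, all rose. In the cluster on the same chromosome from 83339280 to 83478185, 4 of 5 rose (Ccl5, Ccl9, Ccl3 and Ccl4, with Ccl6 not passing). On chromosome 5 from 92750357 to 92794511 all 3 CXCR3 ligands rose, as did Art3, the other tested gene between them. Art3 shares 133 exon bases with Cxcl10 and had a far lower level, at a mean of 2.21 CPM in E861A livers. Whether reads of Cxcl10 were counted for Art3 was not tested. On chromosome 5 from 91188325 to 91334935, 2 of 3 tested ligands rose and the platelet genes between them did not pass. In the receptor cluster on chromosome 9, Ccr1 rose, Ccr9 fell and Ccr2 and Xcr1 did not pass, nor did 3 other tested genes there. Clusters on chromosome 4 (8 chemokine genes, 1 tested) and chromosome 8 (3 genes, 1 tested) held 0 genes that changed. Ccl20, Cxcl16 and Cxcr4 changed and lay in no cluster. Ccl24, which fell, lies next to Ccl26, for which no read was found. Close relatives in a cluster can share reads, and how multiply mapped reads were counted is not stated in the sources used here.

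Genes around the chemokine system were read in the same fit, in which 7.77% of all tested genes rose and 4.26% fell. The shares of all genes in each alternative are given below with the chemokine counts. Of 23 genes that induce chemokines 11 rose and none fell (median log2 fold change 0.68; 7 to 11 rose over 12 alternatives, with 7 among male libraries alone), among them the interferon signalling factors Stat2, Irf1 and Irf7. Irf7 stood at 749, 776 and 663 CPM in E861A 6, 16 and 19, against 5.47, 11.2 and 4.63 CPM in wild type 2, 15 and 17. Ifnb1, the gene of interferon beta, had 148, 75 and 62 reads in E861A livers, against 0, 0 and 1 reads in wild-type livers. Its part in the chemokine results was not tested. Ifng, the gene of interferon gamma, had 0 reads in all 6 libraries. Tnf stood at 3.83, 3.59 and 3.46 CPM in E861A livers, against 0.529, 0.991 and 0.583 CPM in wild-type livers (log2 fold change 2.37, SE 0.34, edgeR adjusted p = 0.00437). Tnf passed in 11 of 12 alternatives, with the exception of male libraries alone (adjusted p = 0.0630), and Il1b did not pass (0.22, SE 0.46).

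A list of atypical chemokine receptors, with Cmklr1 and Pitpnm3 grouped beside them, mostly did not pass. Of 6 tested, 1 rose: Ccrl2, which binds the attractant chemerin, stood at 38.6, 33.2 and 27.4 CPM in E861A 6, 16 and 19, against 10.2, 13.8 and 10.1 CPM in wild type 2, 15 and 17 (log2 fold change 1.54, SE 0.20, edgeR adjusted p = 0.00257). Its groups were well apart, and it passed in 11 of 12 alternatives, with the exception of male libraries alone (adjusted p = 0.0533). Ccbp2, the scavenger of inflammatory CC ligands, had a log2 fold change of 1.62 (SE 0.47) and did not pass (adjusted p = 0.0620). Darc (-0.60), Cmklr1 (-0.20), Pitpnm3 (0.19) and Cxcr7 did not pass, and Ccrl1 was too low for the test. Of 34 genes of receptor signalling 3 rose and 1 fell (median 0.18), near the 7.77% and 4.26% of all tested genes. The G protein regulators Rgs2 (1.10) and Rgs19 (0.57) were among those that rose, and Arrb1, which encodes a beta-arrestin, fell (-1.80). Arrb1 stood at 259, 278 and 269 CPM in E861A livers, against 647, 1233 and 930.5 CPM in wild-type livers, and it passed in all 12 alternatives. Rgs2 passed in 10 and Rgs19 in 3 of 12, and the list had 1 to 4 higher and 1 to 4 lower over them. Of 18 genes of chemokine cleavage and surface presentation 3 rose and 1 fell (median 0.10), against 7.77% and 4.26% of all tested genes. Heparanase (Hpse, 1.97) and the syndecans Sdc4 (1.18) and Sdc3 (0.63) rose. Adam10, which frees Cx3cl1 and Cxcl16 from the cell surface, fell (-0.98). Hpse passed in 12, Sdc4 in 11, Adam10 in 6 and Sdc3 in 5 of 12 alternatives, and among male libraries alone the list had 1 higher and 0 lower.

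Markers of other cells also moved, and their counts depended on sex and on single livers. Over all tested genes 7.77% rose and 4.26% fell, and the shares in the alternatives follow in the next paragraph. Of 10 endothelial markers 5 rose and 1 fell (median 0.74), with a summed level of 457 to 602 CPM in E861A livers and 385 to 488 CPM in wild-type livers. Only 1 endothelial marker rose when sex was a covariate or without E861A 16, and 0 among male libraries alone or without wild type 17. Of 10 hepatoblast markers 4 rose and none fell (median 0.66), against 0 rises when sex was a covariate or among male libraries alone, 2 without wild type 15 or wild type 17, 1 without E861A 16, 8 without E861A 19 and 6 by DESeq2. Of 9 red cell markers 3 fell and none rose (median -0.99), against 0 falls when sex was a covariate (median -0.49) or among male libraries alone (median -0.48), 1 without either female wild-type liver, E861A 19 or E861A 16, 2 without E861A 6, and 7 by DESeq2 or without wild type 2. In the edgeR fit to all 6 libraries none of 10 megakaryocyte and platelet markers, Pf4 and Ppbp among them, passed, with 0 at an unadjusted p under 0.05 and 0 by DESeq2, but 1 was higher when sex was a covariate and 1 lower without wild type 2. In the same fit none of 6 dendritic cell markers, Xcr1 among them, passed, with 1 lower at an unadjusted p under 0.05 and 1 lower by DESeq2. Their part in the chemokine results was not tested.

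The calls depended on sex and on single livers. All E861A livers were male while 2 of 3 wild-type livers were female, so genotype and sex cannot be told apart without leaning on wild type 2. With sex as a covariate 11 chemokine and receptor genes rose (3.21% of all tested genes) and 0 fell (0.236%). In the male libraries alone, with wild type 2 as the only wild-type liver, 9 rose (1.68%) and 0 fell (0.0447%). Without wild type 2, 17 rose (10.4%) and 2 fell (8.96%), without wild type 15, 12 rose (4.64%) and 1 fell (1.15%), and without wild type 17, 9 rose (3.23%) and 1 fell (0.553%). Without E861A 6, 14 rose (6.24%) and 2 fell (2.95%), without E861A 16, 10 rose (3.02%) and 0 fell (0.879%), and without E861A 19, 15 rose (5.89%) and 1 fell (3.08%). At an unadjusted p under 0.05 the edgeR counts were 18 higher and 2 lower with sex as a covariate and also without E861A 16. They were 18 and 3 in the fit to all 6 libraries. No share of all tested genes is given at an unadjusted p, here or for the marker lists, so these counts have no background beside them. DESeq2 gave 17 rises (8.58%) and 2 falls (8.25%), and its size factors in edgeR gave 17 (7.10%) and 2 (5.34%). With no filter on low counts 15 rose (4.75%) and 2 fell (2.84%), and with a minimum of 1 CPM in 3 libraries, which left 26 of the genes, 15 rose (8.50%) and 1 fell (8.33%). Of the 19 genes that changed, 7 passed in all 12 alternatives: Cxcl10, Cxcl11, Ccl2, Ccl12, Ccl5, Cxcl1 and Cxcl2. Among these, Cxcl11, Ccl12, Ccl5, Cxcl1 and Cxcl2 had fewer than 10 reads in every wild-type library. They entered the test through their E861A reads, so they had to differ to be tested at all.

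**Figure D4:**
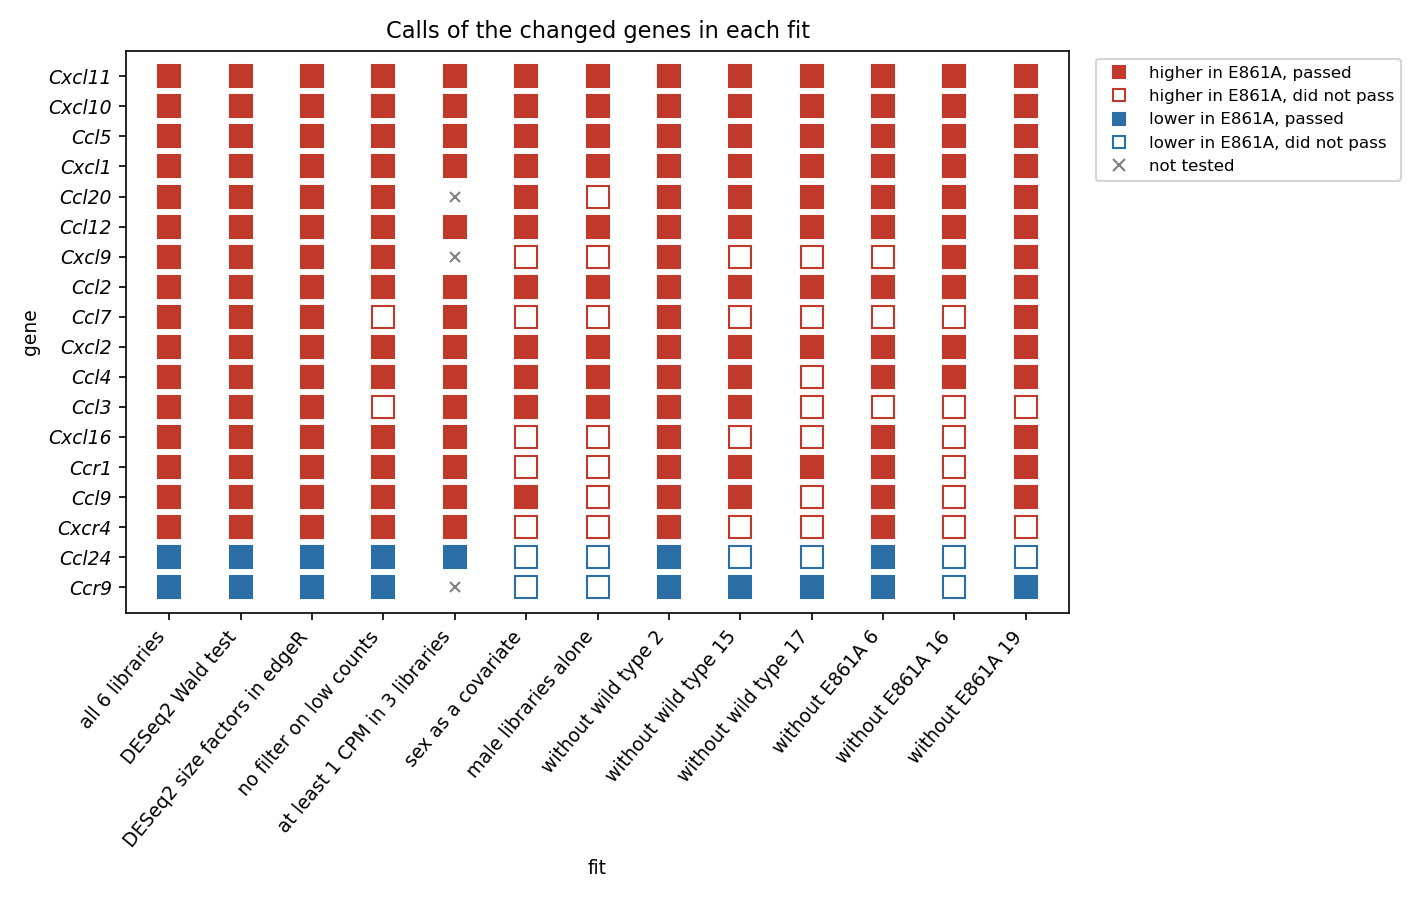
Call of 18 of the 19 genes that changed (rows, by log2 fold change) in the fit to all 6 libraries and in 12 alternatives (columns): filled squares passed, open squares did not, and crosses mark genes not tested there, with red for higher and blue for lower in E861A. No gene changes colour, 7 genes are filled in every column, and open squares gather in the columns for sex, male libraries alone, wild type 17 and E861A 16.

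The authors' deposited table holds 28 of the chemokine and receptor genes, and at its own adjusted p of 0.05 it has 14 of them higher in E861A livers and 1 lower. For 26 of the 28 the call was that of the fit described here. The exceptions, in the authors' deposited table, were Cxcr4 (adjusted p = 0.0557) and Ccl7 (adjusted p = 0.0685), which did not pass there. Cxcl10 had a log2 fold change of 6.97 in the authors' deposited table, with the sign turned to E861A over wild type.

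RNA editing was hardly measured in these genes. Among the 6012 sites tabulated by the authors, 3 lay in or next to a chemokine or receptor gene, and none lay in an exon. A pair lay in introns of Ccl25 on chromosome 8, at 4344681 and 4344697 (NCBIM37), with 1 of 8 and 0 of 8 reads edited in E861A livers, against 1 of 11 and 1 of 15 in wild-type livers. The other lay between genes on chromosome 5, at 96403110, with Cxcl13 as its nearest listed gene, and all 6 reads in E861A livers and all 9 in wild-type livers carried the change. These depths are too small to compare the genotypes.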

How the data were processed

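The authors deposited whole-number counts of reads per gene for 6 libraries. The submitters' processing notes list TopHat2 2.0.8 with Bowtie2 2.1.0.0, HTSeq, SAMtools 0.1.19 and Trimmomatic 0.30 among other tools, and mm9 and NCBIM37, without their role or order. The sources used here do not say whether libraries were stranded. The authors' deposited table of comparisons gives a log2 fold change and a p-value per gene, per the file headers as wild type minus mutant. Its sign is reversed in the text. The deposited site table gives covering reads and the edited fraction per library, per the file headers, and edited reads are their product.

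The whole count table was fitted with edgeR 4.0.16 in R 4.3.3 (filterByExpr, TMM, robust quasi-likelihood F test), E861A over wild type, with Benjamini-Hochberg adjustment over 16511 genes at 0.05. The fit was tested on simulated data. SE was obtained as log2 fold change divided by √F, SD is over 3 libraries, and exon lengths are those of GENCODE M1. For a gene with 0 wild-type reads the group was given 3 reads in all as a floor, and intervals cover counting error only. With 3 libraries against 3, an exact permutation test could not go below 0.1. Alternatives were DESeq2 1.42.0, its size factors, other filters, sex as a covariate, male libraries alone and each library left out. Tables were joined in Python 3.11.15 with pandas 2.3.3 and SciPy 1.17.1.

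Tested chemokine and receptor genes are named, except that a few results are not reported here, with library values for genes that changed, for those of at least 1 CPM on average in a genotype and for partners of changed genes, and untested genes are named where they had at least 10 reads or 0. Of other lists, Pf4, Ppbp, atypical receptors and up to 4 changed genes with the smallest p are named, and Tnf, Il1b, Ifnb1, Ifng, Il7r and Cd3e were added after their values were seen. The genes and lists were chosen with earlier results of these data known.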

Additional observations from a re-analysis of the deposited data

How the results depend on the processing

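No paired analysis was possible because E861A and wild-type livers have no number in common. Over all genes the counts were 1283 higher and 703 lower in E861A. They were 530 higher and 39 lower when sex was a covariate, and 301 and 8 among male libraries alone. DESeq2 called 1397 lower and the minimum of 1 CPM in 3 libraries 1160. With single libraries left out the counts ran from 515 to 1737 higher and from 95 to 1502 lower. Among chemokine and receptor genes, against 17 higher and 2 lower, sex as a covariate left 11 and 0, male libraries alone 9 and 0, the minimum of 1 CPM 1 lower, and single libraries left out 9 to 17 higher and 0 to 2 lower. With male libraries alone the lone wild-type liver is assumed to vary like the E861A livers.

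No gene that passed changed direction in any alternative that tested it. The signs that turned were of genes that did not pass, and the cause was not tested. Among male libraries alone they were Ccl27a (-0.14), Cx3cl1 (-0.15) and Cxcr7 (-0.10), and when sex was a covariate the values were -0.15, -0.16 and -0.11 in the same order. With single libraries left out Ccl25 ran from -0.12 to 0.39, Cxcl12 from -0.34 to 0.43, Cxcl13 from -0.65 to 1.27 and Ccr2 from -0.10 to 0.15. Ccr2 was also at -0.046 with DESeq2, -0.035 with its size factors, -0.025 with no filter and -0.011 with the minimum of 1 CPM. Depth limits genes under about 10 reads per library, such as Cxcr3, Ccr6 and Cxcl3.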
